A study of Mus musculus with 6 samples.

Results

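The genes described here are Aldh1a2 and 8 further genes of retinoic acid synthesis, uptake, breakdown and reception, measured in libraries labelled as bone endothelial cells (BECs). They are 9 of the 37991 genes in the count table of the 12-week comparison between the sexes. Aldh1a2 was selected on its difference between females and males in these same libraries, and Aldh1a1, Aldh1a3, Rdh10, Stra6, Cyp26b1, Rara, Rarb and Rarg were added for their known role. The values of the 9 genes between the sexes are therefore given as a description, with no test. The libraries were 3 of females and 3 of males, all of strain c57/Bl6 by the labels, which the study's methods give as C57BL/6J, and 12 weeks of age, with no transgene and no treatment named for either group. By the labels the cells came from freshly isolated tibia, whereas the methods for isolating BECs name femurs as well, and they were purified by endomucin, a surface protein of capillary and venous endothelium, so each library is a bulk of the cells that this step retained. In such a bulk, fewer cells of a type and less RNA per cell cannot be told apart. Nothing in the labels says that the libraries came from separate animals, and p-values then measure only the spread between these samples.

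Retinoic acid is a signalling lipid made from vitamin A. STRA6 takes retinol into the cell, RDH10 oxidises retinol to retinal, and the retinaldehyde dehydrogenases ALDH1A1, ALDH1A2 and ALDH1A3 turn retinal into retinoic acid in a step that is not reversed. CYP26 enzymes such as CYP26B1 hydroxylate and so remove retinoic acid. The receptors RARα, RARβ and RARγ, encoded by Rara, Rarb and Rarg, bind it as partners of RXR proteins on response elements in DNA, and Rarb is itself a textbook target of the pathway.

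The start of Aldh1a2, the gene with the wide difference between the sexes, and the start of Rarb, the target gene, are shown because the levels of both transcripts are described below. Both windows run from 250 bases before to 50 bases after the start listed by RefSeq on GRCm38.p6, at chr9:71215539-71215838 on the plus strand for Aldh1a2 and at chr14:16575427-16575726 on the minus strand for Rarb. They are written 5′ to 3′ along the gene. Capitals in the Rarb window mark 17 bases of the spelling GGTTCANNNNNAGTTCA, 2 unlike blocks of 6 bases with 5 bases between them, and there are no capitals in the Aldh1a2 window.
Aldh1a2: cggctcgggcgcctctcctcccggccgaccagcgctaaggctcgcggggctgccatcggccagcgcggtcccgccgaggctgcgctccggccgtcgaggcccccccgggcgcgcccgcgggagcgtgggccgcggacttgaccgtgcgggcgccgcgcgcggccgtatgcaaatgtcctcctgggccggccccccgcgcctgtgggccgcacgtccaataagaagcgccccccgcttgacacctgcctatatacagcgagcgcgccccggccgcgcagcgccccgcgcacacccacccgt
Rarb: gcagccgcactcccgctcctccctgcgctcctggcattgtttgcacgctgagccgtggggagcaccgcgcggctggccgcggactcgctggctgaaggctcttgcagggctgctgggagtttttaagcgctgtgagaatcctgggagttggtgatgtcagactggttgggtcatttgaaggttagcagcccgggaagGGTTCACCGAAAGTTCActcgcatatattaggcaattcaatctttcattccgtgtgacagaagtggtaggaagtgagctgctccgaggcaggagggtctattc

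The capitals in Rarb begin 53 bases before the start. The spelling was searched on both strands and was found in 2 of the 32851 RefSeq promoter windows of this length, or 0.00609%. A repeat of the spelling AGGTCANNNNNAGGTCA was in 0.00913% of windows and the oestrogen receptor spelling GGTCANNNTGACC in 0.07%, and neither was in a window of the 9 genes. The single block AGGTCA, which is part of the repeat, was in 16.3% of windows, among them 1 window of Rara and 1 of Rarg. The Aldh1a2 window was 78% G and C and held 50 CG pairs, more than 99.1% of windows. The median window was 52.7% G and C and held 7 CG pairs. Of the 9 genes, 7 were matched to 15 windows in total. The spellings were chosen after the levels were seen, so the match in Rarb is a description and no test. A match describes the letters in a window, and no binding was measured here.

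Library totals lay between 47678806 and 58325745 counts. Levels are given as CPM, counts scaled to library size with edgeR's TMM factors, and a floor of 3 counts equals 0.0477 to 0.0639 CPM. The floor covers counting error only, since PCR copies were not removed by molecular identifiers. Markers of other cells were abundant in all 6 libraries. The 24 endothelial markers summed to between 265 and 654 CPM, with none at 0 in a library, whereas 14 neutrophil markers summed to between 19676 and 45268 CPM and 8 erythroid markers to between 12121 and 27103 CPM. Endothelial markers were thus present but at 0.0265 to 0.0696% of counts, against 2.12 to 4.53% for neutrophil markers, and the levels below are those of the mixed libraries rather than of endothelial cells alone.

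Aldh1a2, on chromosome 9 from 71122630 to 71203527 on the plus strand of GRCm39 (ENSMUSG00000013584), was at 71.9, 73.2 and 57.4 CPM in female replicates 1 to 3. It was at 9.78, 10.6 and 10.1 CPM in male replicates 1 to 3. The lowest female library was far above the highest male library, and the males lay within a narrow band, with a coefficient of variation of 4.24% against 13% in females. These levels rest on 2695 to 4519 counts in each female library and 481 to 524 in each male library. The fitted log2 fold change of males over females was -2.73 with a standard error of 0.136, which is 6.63-fold more in females. Leaving out any 1 library gave values between -2.83 and -2.67. An antisense transcript gene, Gm3458, shares 390 exon bases with Aldh1a2 on the opposite strand in GENCODE M39 and is not a row of the count table, so reads of the pair cannot be told apart if strand was not used in counting.

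**Figure D1:**
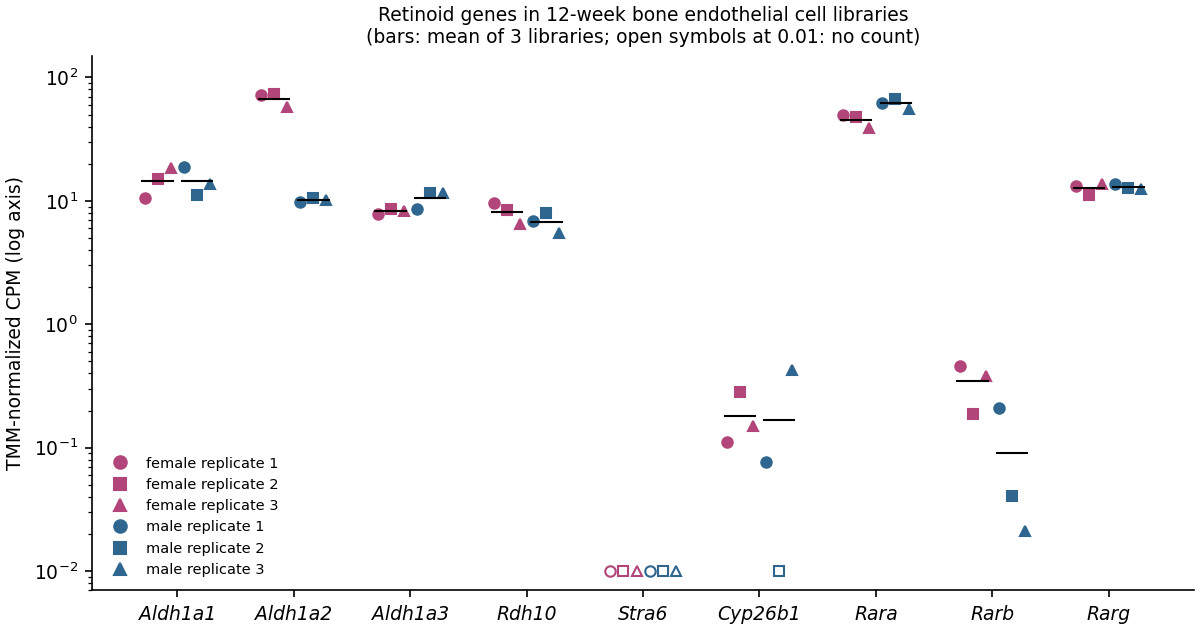
TMM-normalized CPM (log axis) of the 9 genes in each library, with females in magenta and males in blue, a symbol shape for each replicate number and a black bar at the mean of 3 libraries. Aldh1a2 sits at 57.4 to 73.2 in females and at 9.78 to 10.6 in males, Rara is somewhat higher in males, and Stra6 has no count in any library (open symbols at the foot of the axis, a position and not a value).

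The other 2 retinaldehyde dehydrogenases did not follow Aldh1a2. Aldh1a1, on chromosome 19 from 20469539 to 20622825 on the plus strand, was at 10.5, 15.1 and 18.3 CPM in females and at 18.7, 11.1 and 13.7 CPM in males. The sexes overlapped over nearly the whole range, and the log2 fold change was -0.01 with a standard error of 0.24. Aldh1a3, on chromosome 7 from 66040638 to 66077850 on the minus strand, was at 7.81, 8.65 and 8.24 CPM in females and at 8.52, 11.6 and 11.5 CPM in males. Male replicate 1 lay within the range of the females and the other 2 male libraries above it, with a log2 fold change of 0.36 and a standard error of 0.183. Aldh1a1 has a close mouse paralog, Aldh1a7, and how the counting divided reads between the pair is not known.

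Because these 3 enzymes catalyse the same step, their transcripts were also set side by side per kilobase of transcript, the scale on which levels of different genes can be compared. Aldh1a2 made up 88, 85.5 and 81% of their summed CPM per kilobase in the female libraries and 41.3, 45.6 and 42.5% in the male libraries. The mean share was 84.8% ± 3.57 for females and 43.2% ± 2.23 for males, with SD over n = 3 libraries each. Aldh1a2 was thus the bulk of these transcripts in each female library and under 50% in each male library, where Aldh1a1 held 26.8% ± 6.99 and Aldh1a3 30.1% ± 5.11. Summed over the 3 enzymes, the level was 29.3 ± 2.8 CPM per kilobase (females) and 8.73 ± 0.102 (males). With CPM not divided by length, the share of Aldh1a2 was 74.5% in females and 29% in males, since the transcript of Aldh1a2 is the shortest of the 3.

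**Figure D2:**
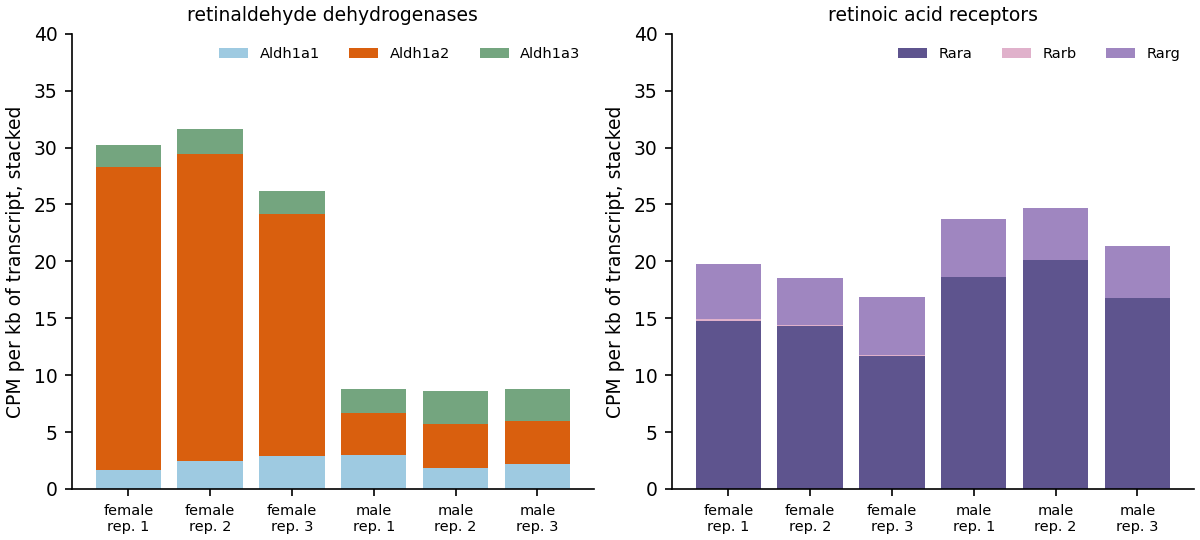
Stacked levels in CPM per kb of transcript for each library, the 3 retinaldehyde dehydrogenases on the left and the 3 retinoic acid receptors on the right, from 0 on a shared scale. The enzyme stacks reach 26.2 to 31.6 in females and 8.62 to 8.82 in males through the Aldh1a2 segment, while the receptor stacks are at 16.9 to 19.8 in females and 21.3 to 24.7 in males.

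The enzyme upstream and the genes at either end of the pathway were low or not seen. Rdh10, on chromosome 1 from 16175555 to 16203958 on the plus strand, supplies retinal and was at 9.64, 8.49 and 6.45 CPM in females and at 6.91, 7.96 and 5.52 CPM in males. Its values overlapped between the sexes, and the fitted log2 difference was -0.27 (standard error 0.223). Stra6, on chromosome 9 from 57970967 to 58063543 on the plus strand, had 0 counts in each of the 6 libraries, which allows a level of up to 0.0477 to 0.0639 CPM by the floor of 3 counts. Cyp26b1, on chromosome 6 from 84548396 to 84570890 on the minus strand, had 7, 15 and 7 counts in females and 4, 0 and 20 in males. These 53 counts correspond to at most 0.422 CPM in a library, and no difference between the sexes is given for so few counts. Stra6 and Cyp26b1 did not pass the filter on low counts, which the other 7 genes passed.

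Rara, on chromosome 11 from 98818612 to 98865768 on the plus strand, was the most abundant receptor transcript. It was at 49.3, 47.7 and 39 CPM in females and at 62.2, 67 and 55.8 CPM in males. All 3 male libraries were above all 3 female libraries, opposite in direction to Aldh1a2 and much smaller in size, with a log2 fold change of 0.44 and a standard error of 0.129. Rarg, on chromosome 15 from 102143373 to 102165952 on the minus strand, was at 13.2, 11.2 and 13.8 CPM in females and at 13.7, 12.6 and 12.4 CPM in males, and its log2 fold change was 0.01 with a standard error of 0.155. The male libraries fell inside the female range. Per kilobase, Rara made up 73.8% ± 4.16 of the 3 receptor transcripts in females and 79.5% ± 1.56 in males (SD, n = 3), with Rarg making up nearly all of the remainder.

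Rarb, on chromosome 14 from 5650540 to 6041094 on the plus strand of GRCm39, had 29, 10 and 18 counts in females and 11, 2 and 1 in males. Male replicate 1 had more counts than female replicate 2, so the sexes overlapped. The fitted log2 fold change was -1.89 with a standard error of 0.831, and it moved to -3.38 without male replicate 1. In CPM, Rarb was at 0.345 ± 0.14 in females and 0.0902 ± 0.103 in males (SD, n = 3). It shares 2612 exon bases with Top2b on the opposite strand, a gene with a mean of 8492 counts a library, so reads of the pair cannot be told apart if strand was not used in counting. Whether Top2b reads entered the Rarb counts was not tested.

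Across the 9 genes, the groups did not overlap for 2, Aldh1a2 and Rara, beside 14.5% of the 19480 genes tested. Aldh1a2 was chosen for that difference, so nothing is read from the count. Among the 7 fitted genes, 4 had a negative and 3 a positive log2 fold change. Per kilobase, the order in females was Aldh1a2 at 24.9 ± 3.23, Rara at 13.6 ± 1.65 and Rarg at 4.69 ± 0.51 CPM per kilobase, each above the next in every library. Aldh1a1, Aldh1a3 and Rdh10 followed at 2.36, 2.04 and 2.03, with ranges that overlapped, and Rarb and Cyp26b1 were far below. In males Rara led at 18.5 ± 1.7, followed by Rarg at 4.73 ± 0.261 and Aldh1a2 at 3.76 ± 0.16. These did not overlap with each other, whereas Aldh1a3, Aldh1a1 and Rdh10 at 2.62, 2.34 and 1.69 had overlapping ranges from neighbour to neighbour. With the length of all exons in place of the transcript length, the order of these 3 genes became Rdh10, Aldh1a3 and Aldh1a1 in females and Aldh1a3, Rdh10 and Aldh1a1 in males, and the other places stayed.

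The summed endothelial markers were lower in each male library than in any female library, so the level of Aldh1a2 was set against them. Their sum was 646, 442 and 654 CPM in females and 354, 265 and 408 CPM in males, and all 24 markers had a negative fitted log2 fold change, 6 of the 24 with groups that did not overlap, beside 14.5% of all genes tested, while edgeR called none of the 24 at an adjusted p under 0.05. Before adjustment, 16 of the 24 were under 0.05 in edgeR, beside 9.79% of all genes tested, and DESeq2 called 9, beside 2.08%. Aldh1a2 per 100 CPM of these markers was 11.1, 16.6 and 8.78 in females and 2.76, 4.01 and 2.48 in males. The log2 ratio of male to female means was -1.98, and -2.31 against Cdh5, Emcn and Pecam1 alone. Aldh1a2 was chosen for its difference, and the gap in its CPM was wider in fold than the whole spread of the sums. The sexes could therefore not overlap on the ratio to the 24 markers, which is a description and no check. On the same ratio to all endothelial markers, Rara, Rarg and Aldh1a3 were higher in each male library than in any female library, with log2 ratios of 1.21, 0.79 and 1.12, while Aldh1a1, Rdh10 and Rarb overlapped. The shared denominator was itself lower in males, with a log2 ratio of mean sums of -0.76, which raises the ratio of every gene alike. The 0.79 of Rarg, whose fitted log2 fold change was 0.01, is thus the shift of the denominator. The values of Rara and Aldh1a3 hold the same shift, beside fitted log2 fold changes of 0.44 and 0.36. Aldh1a3 overlapped between the sexes in CPM and came apart only on the ratio.

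Markers of other cell types are given beside Aldh1a2 as summed levels, and edgeR called none of the 74 tested at an adjusted p under 0.05. It had 34 of the 74 at an unadjusted p under 0.05, beside 9.79% of all genes tested, 10 of them neutrophil and 9 macrophage markers. DESeq2 called 12 of the 74, beside 2.08% of its tested genes, of which 8 were neutrophil markers. Both counts were well above these shares. Neutrophil markers summed to 19676 to 24207 CPM in females and 33372 to 45268 CPM in males, with 13 of 14 higher in males by fitted value and 11 of 14 so without overlap, and 8 erythroid markers to 12121 to 17416 and 18440 to 27103 CPM, with 4 of 8 higher in males without overlap. Over all genes tested, 14.5% did not overlap in either direction. Macrophage markers ran in the direction of Aldh1a2, with 9 of 9 lower in males, 5 of them without overlap, and sums of 3571 to 4040 CPM (females) and 2410 to 3310 CPM (males). Markers of stromal reticular cells and fibroblasts ran the same way, with 9 of 10 lower in males by fitted value and 1 whose groups did not overlap, although their sums overlapped at 1461 to 3042 CPM in females and 1215 to 2364 CPM in males. The log2 ratio of male to female mean sums was -0.46 for the stromal, -0.43 for the macrophage and -0.42 for the eosinophil markers. Eosinophil sums did not overlap, with 3 of 5 markers lower in males, and 2 markers were higher in females and 1 in males without overlap. Sums also overlapped for osteoblast markers, 5 of 7 lower in males, at 160 to 250 and 145 to 199 CPM, and for mural cell markers, 4 of 6 lower in males, at 38.8 to 64.2 and 31.8 to 47.1 CPM. Of the mural markers, 1 was higher in females and 1 in males without overlap. Eosinophil markers were at 303 to 343 CPM in females and 190 to 285 CPM in males, dendritic cell markers at 136 to 177 and 152 to 165 CPM, and B cell markers at 2795 to 3206 and 2812 to 3242 CPM. None of the listed markers that were in the table was at 0 in a library. Female replicate 2 had the lowest endothelial and stromal sums among the females, at 442 and 1461 CPM, and the highest macrophage sum, at 4040 CPM. Its Aldh1a2 level was 73.2 CPM, close to the 71.9 CPM of female replicate 1, which had the lowest macrophage sum among the females, at 3571 CPM. Female replicate 3 had a similar macrophage sum, at 3601 CPM, and Aldh1a2 at 57.4 CPM. The part of these cells in the level of Aldh1a2 was not tested.

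**Figure D3:**
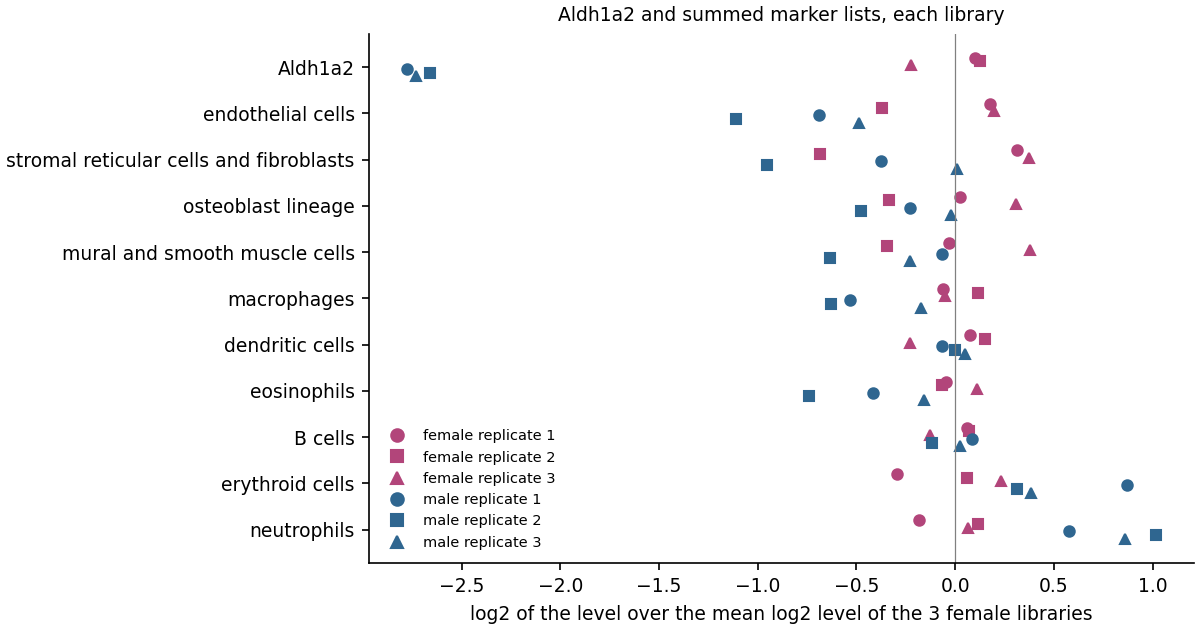
Aldh1a2 and the summed CPM of each marker list in each library, as log2 of the level relative to the mean log2 level of the 3 female libraries (x axis), with females in magenta and males in blue. Aldh1a2 lies furthest below in the 3 male libraries, endothelial markers lie below by less, and neutrophil and erythroid markers lie above.

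The wider retinoid pathway was followed in 51 further genes listed by role, of which 43 passed the filter and could be tested. None was called by edgeR's quasi-likelihood test at an adjusted p under 0.05, beside 0.0411% of all genes tested, or 8 of 19480. The same test with the replicate number as a block called 6, beside 2.2% of all genes tested. At an unadjusted p under 0.05 there were 12 of the 43, or 27.9%, beside 9.79% of all genes tested, 5 of them higher in males and 7 in females. DESeq2 called 3, beside 2.08% of its tested genes, with Dhrs9 higher in males and Rbp4 and Adh1 higher in females. The groups did not overlap for 9 of 43, or 20.9%, beside 14.5%, of which 5 were higher in males and 4 in females. Their median log2 fold change was -0.05, and that of all genes tested 0.00. There were 13 of the 51 under 1 CPM in every library, and 2 of these, Lrat and Sdr16c5, had no count.

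The oxidoreductases that interconvert retinol and retinal included 4 genes of 14 whose groups did not overlap, or 28.6%, beside 14.5% of all genes tested. Dhrs9, a retinol dehydrogenase, was at 13.8, 15.2 and 15.2 CPM in females and at 24.7, 25.9 and 25.7 CPM in males. The male libraries were tightly grouped above the female ones, and the fitted log2 difference of males over females was 0.79 ± 0.126 (SE), at an adjusted p = 0.0603 with edgeR and 6.48e-05 with DESeq2. Adh1, an alcohol dehydrogenase able to oxidise retinol, was at 8.72, 5.54 and 11.4 CPM in females and at 2.37, 0.832 and 3.82 CPM in males. It shared the direction of Aldh1a2 without overlap, at a fitted log2 difference of -1.87 ± 0.472 (SE) and an adjusted p = 0.224 with edgeR and 0.000984 with DESeq2. Dhrs7 had higher values in males, at 90 to 107 CPM against 63.2 to 79.4 CPM in females (adjusted p = 0.244 with edgeR), and Dhrs3, which reduces retinal to retinol, higher values in females, at 38 to 42.1 CPM against 29.4 to 37 CPM in males (adjusted p = 0.508 with edgeR). Adh5, the formaldehyde-clearing alcohol dehydrogenase, was at 60.9 to 68.8 CPM across all 6 libraries. Of the 14 tested genes in this list, edgeR called none, 5, or 35.7%, were at an unadjusted p under 0.05 beside 9.79% of all genes tested, and DESeq2 called 2 beside 2.08% of its tested genes.

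**Figure D4:**
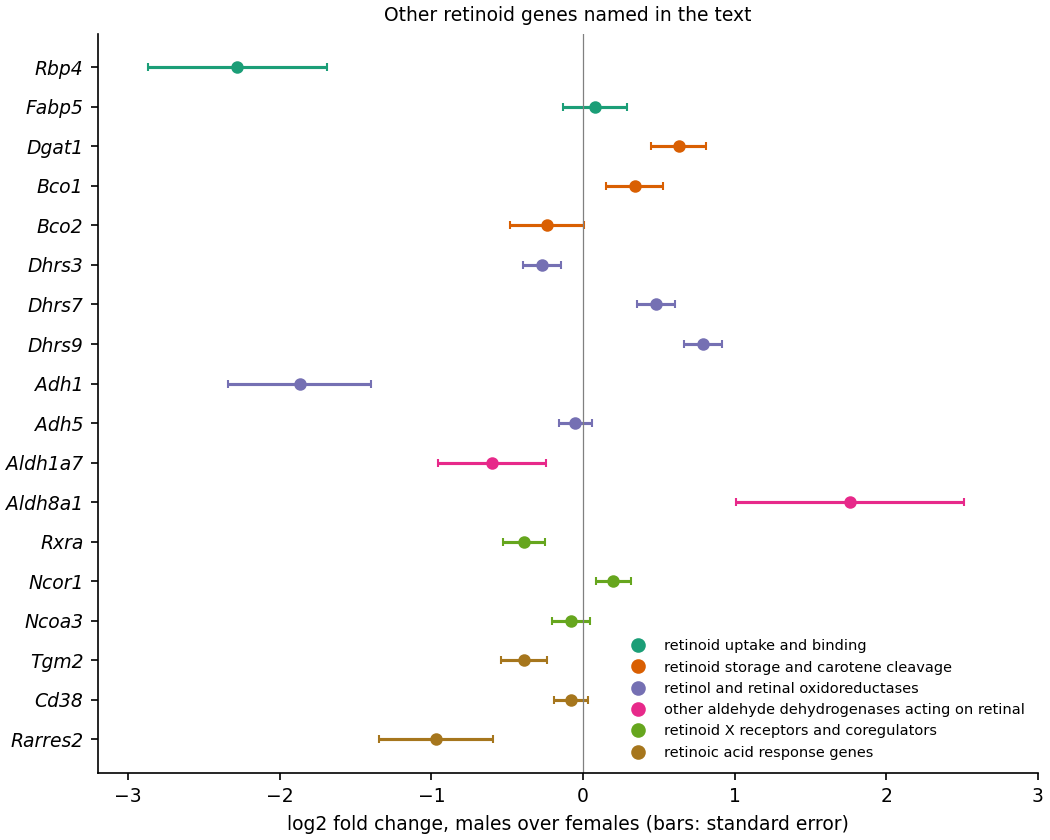
Log2 fold change of males over females with its standard error (bars) for the tested retinoid genes named in the text, coloured by role. Rbp4 and Adh1 lie furthest to the female side at -2.28 and -1.87, Dhrs9 at 0.79 has a narrow bar, and Aldh8a1 at 1.76 rests on 113 counts in 6 libraries and falls to 0.85 without male replicate 2.

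Among genes of retinol uptake and binding, 5 of 9 were tested, of which edgeR called none, 1 was at an unadjusted p under 0.05 (20%, beside 9.79% of all genes tested) and DESeq2 called that gene, Rbp4 (beside 2.08%). Rbp4, the carrier of retinol in serum, was at 2.69, 1.72 and 2.81 CPM in females and at 0.0949, 0.548 and 0.843 CPM in males. Its groups did not overlap, at a fitted log2 difference of -2.28 ± 0.591 (SE) and an adjusted p = 0.23 with edgeR and 0.00477 with DESeq2, on 464 counts in all. With a library left out, the log2 difference ran from -2.91 (without male replicate 3) to -1.79 (without male replicate 1). Fabp5, which carries fatty acids and retinoic acid, was at 46.5 to 67.4 CPM in females and 52 to 86.2 CPM in males, and its groups overlapped. Of 3 tested genes of storage and carotene cleavage, Dgat1, which makes triglycerides and can esterify retinol, was at 37.9 to 44.5 CPM in females and 49.7 to 85.5 CPM in males without overlap (adjusted p = 0.287 with edgeR). Bco1 and Bco2, which cleave carotenoids, were at 10.3 to 15.8 and 3.7 to 5.92 CPM over the 6 libraries, and their groups overlapped.

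Other enzymes acting on retinal or retinoic acid were scarce. Aldh1a7 was at 1.97 to 4.28 CPM in females and 1.4 to 2.47 CPM in males, and Aldh8a1 at 0.0639 to 0.227 and 0.209 to 1.12 CPM. Both overlapped between the sexes, and the log2 fold change of Aldh8a1, at 1.76, was 0.85 without male replicate 2. The hydroxylases Cyp26a1 and Cyp26c1 had 39 and 12 counts in the 6 libraries and were not tested. With Cyp26b1, none of the 3 CYP26 genes therefore reached 1 CPM in any library.

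All 9 RXR and coregulator genes were tested, and neither edgeR nor DESeq2 called any, with 1, or 11.1%, at an unadjusted p under 0.05 in edgeR, near the 9.79% of all genes tested. Rxra, the partner of the retinoic acid receptors, was at 88.5, 111 and 108 CPM in females and at 74.3, 69.8 and 90.3 CPM in males, so 1 male library lay above 1 female library (adjusted p = 0.383 with edgeR). The corepressor Ncor1 was at 157 to 166 CPM in females and 167 to 196 CPM in males, and the coactivator Ncoa3 at 93 to 111 and 90.1 to 112 CPM. Of the 10 listed response genes, neither tool called any. At an unadjusted p under 0.05 in edgeR there were 3, or 30%, all higher in females, beside 9.79% of all genes tested. The groups did not overlap for 2 of the 10, or 20%, beside 14.5% of all genes tested, 1 higher in males and 1 in females. Tgm2, which encodes tissue transglutaminase, was at 92.9 to 132 CPM in females and 80.4 to 100 CPM in males, Cd38, an NAD-consuming surface enzyme, at 139 to 148 and 126 to 144 CPM, and Rarres2, which encodes chemerin, at 15.7 to 29.9 and 7.27 to 19.6 CPM. The groups overlapped for these 3 genes, the most abundant of the list, with adjusted p of 0.43, 0.863 and 0.45 with edgeR. Before adjustment, Tgm2 and Rarres2 were under 0.05 in edgeR and Cd38 was not.

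To find the genes whose values across the libraries were most like those of Aldh1a2, 10478 protein-coding genes with a mean of at least 5 CPM were ranked by the root mean square difference of their centred log2 CPM from that of Aldh1a2 over the 6 libraries. The nearest was Tgfb3, which encodes transforming growth factor β3, at 18.5, 26.1 and 21.1 CPM in females and 5.07, 4.81 and 6.87 CPM in males (difference 0.443). Marco, a scavenger receptor of macrophages, followed at 5.92, 8.78 and 10.3 CPM in females and 2.51, 1.79 and 2.07 CPM in males (difference 0.537). In both, each female library was above each male library, as the ranking favours. Car3, which encodes a carbonic anhydrase, Spon1, a matrix protein, and Rspo2, a secreted amplifier of Wnt signalling, came next, with differences of 0.66, 0.758 and 0.759. Their levels were 14 to 26.5, 10.4 to 18.1 and 6.09 to 16.1 CPM in females and 4.04 to 5.76, 4.55 to 5.9 and 1.85 to 4.23 CPM in males. Adh1 was at place 11 and Rdh10 at place 1090, while the other members above 5 CPM lay at place 6203 or beyond. The 6 libraries differ chiefly by sex in Aldh1a2, so the ranking says little about likeness within a sex.

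**Figure D5:**
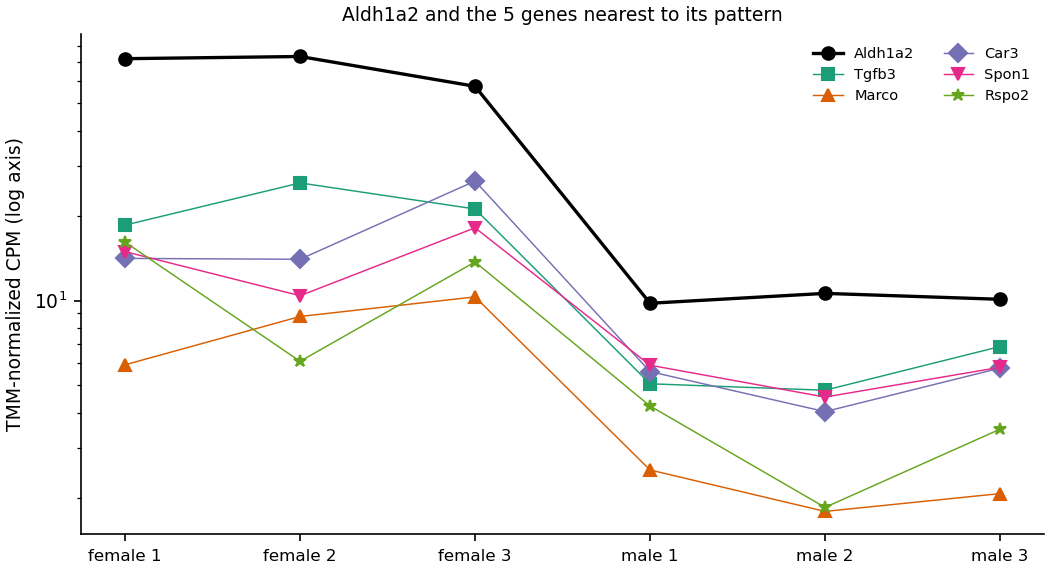
TMM-normalized CPM (log axis) of Aldh1a2 (black) and the 5 genes nearest to its pattern in the 6 libraries on the x axis, with lines joining the values of a gene as a guide and no order among libraries. Aldh1a2 is the highest in each library, and the 3 male values of each gene lie below its 3 female values.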

How the data were processed

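Libraries labelled as BECs of 12-week-old mice, 3 female and 3 male, were measured, and endothelial markers made up a smaller share of their counts than neutrophil markers. The members and the gene lists were chosen with earlier results of these data known. The authors deposited raw counts, whole numbers for each gene in each library, with no normalization and no pooling. The submitters' processing notes name TopHat2 2.0.11, featureCounts, mm9 and NCBIM37, and their protocol a directional kit with reads of 40 nucleotides, whereas the paper's methods name STAR, featureCounts, GRCm39, another kit and longer reads. Which applies is not settled, but 47216 of 78289 GENCODE M39 identifiers lie above the highest in the table, so its annotation is older than that release. The strand setting is not given in the sources used here, and it decides whether reads of antisense partners are kept apart. Beside Aldh1a2 and Rarb, this holds for Aldh1a1, Rara and Rarg. They share up to 646, 244 and 103 exon bases with an antisense gene that is not a row of the count table. The methods state that libraries were made from the samples with the best RNA.

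The fit used edgeR 4.0.16 (R 4.3.3) with all 6 libraries (TMM, filterByExpr by sex, robust quasi-likelihood test, two-sided, Benjamini-Hochberg over the 19480 genes tested), after the procedure was tested on simulated data. Adjusted p under 0.05 was a call. The standard error was taken as log2 fold change over the root of the F statistic. DESeq2 1.42.0 and other scalings, filters, a replicate block and left-out libraries were alternatives. Gene positions and transcript lengths came from GENCODE M39 on GRCm39, which held 31073 of 37991 identifiers, by Ensembl identifier. Promoters came from RefSeq on GRCm38.p6, and no coordinate was converted. Of the listed markers, Ahsp and Vpreb1 were not matched by symbol.

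Genes named are the 9 members, in each of the role lists the 3 with the highest mean CPM and any called by edgeR, DESeq2 or the block, and the 5 protein-coding genes most like Aldh1a2. A gene that this rule selects is not reported here. Lrat and Sdr16c5 were named after their values were seen, as was Gm3458, and so were the promoter spellings searched.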

Additional observations from a re-analysis of the deposited data

How the results depend on the processing

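The direction of Aldh1a2, Aldh1a3, Rdh10, Rara and Rarb was kept under each alternative that could be fitted, with log2 fold changes of -2.83 to -2.67, 0.29 to 0.49, -0.42 to -0.13, 0.35 to 0.52 and -3.38 to -1.44. Aldh1a1 at -0.24 to 0.18 and Rarg at -0.07 to 0.07 took both signs, and Rarb dropped out with at least 10 counts in every library. Of the other retinoid genes, edgeR called 0 as reported, 1 with no filter on low counts (Dhrs9) and from 0 to 2 with a library left out (Dhrs9 and Rarres2 without male replicate 3), and DESeq2 called 3. The adjusted p of Dhrs9 ran from 6.48e-05 to 0.284, that of Adh1 from 0.000984 to 0.565 and that of Rbp4 from 0.00477 to 0.777 over the alternatives of edgeR and DESeq2. With the replicate block, edgeR called 6, Dgat1, Dhrs7 and Dhrs9 higher in males and Rbp4, Adh1 and Rarres2 higher in females, beside 2.2% of all genes tested. Same-numbered libraries had deviations correlated across genes at 0.194, 0.0402 and 0.298. For each female library this was its highest value, for replicate 2 by little (0.0373 with male replicate 1). Male replicate 2, however, correlated best with female replicate 1 (0.131). Whether the numbers pair the samples is not settled, and the calls depend on it. Over all genes tested, edgeR called 8 without the block and 428 with it. Fabp5, at 0.08, turned to between -0.20 and 0.21 with a library left out, negative without female replicate 1 (-0.06) and without male replicate 3. The cause was not tested.

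Alternatives chosen after seeing the data were the shares and the level order with other lengths, and the shares, the ratio and the pattern with a library left out. The share of Aldh1a2 in females was 74.5% with CPM not divided by length, and in males 29% so and 40.7% with the length of all exons. It was 83.2 to 86.8% in females and 41.9 to 44.1% in males with a library left out. The log2 ratio of Aldh1a2 to endothelial markers ran from -2.21 to -1.69 so. Of the 5 genes nearest to Aldh1a2, 0 were shared by a ranking on Pearson correlation, 2 (Tgfb3 and Marco) when genes down to a mean of 1 CPM were ranked, and 3 to 5 with a library left out. Depth limits what can be said of Stra6, Cyp26b1 and Rarb.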
